A study of Mus musculus with 6 samples.

Results

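Expression of 39 genes of the cell division cycle was followed in neutrophils sorted from mouse uteri, in 19 genes of DNA replication and the G1/S transition and, separately, in 20 genes of mitosis and the G2/M transition. The 39 genes were taken by name, as the Ensembl IDs that carry those symbols in GENCODE M21, out of 43432 gene IDs listed in the count tables. Every mouse had the C57BL/6 background and the PRPL genotype, a Cre-lox line in which Cre is made from the progesterone receptor gene (Pgrcre/+) and so acts in cells that express that receptor, and both groups carried it. The normoxia group was kept in ambient oxygen, and the hyperoxia group spent 10 days in a chamber at 60% oxygen, from postnatal day 18 to day 28, and uteri of both groups were taken at 4 weeks of age. Neutrophils were collected as CD45+ Ly6Ghi CD11b+ cells of the whole uterus, and each group has 3 RNA-seq libraries. The labels do not say whether a library came from 1 mouse or a pool, nor that libraries came from separate animals, so p-values here reflect spread among samples that may be partly technical. The contrast asks what breathing extra oxygen altered in neutrophils of the PRPL uterus.

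Libraries held 38683293 to 61715617 gene counts, and 12908 genes passed the low-count filter and were tested. Neutrophil genes were abundant in all 6 libraries: S100a8 ranged from 13229.6 to 44925 CPM (counts scaled to a common library size, with TMM factors) and Ly6g from 38.9 to 351 CPM. Both were lowest in hyperoxia replicate 3 and highest in hyperoxia replicate 2. Genes listed as granulocyte precursor markers set hyperoxia replicate 2 apart. The 12 genes summed to 14446 CPM there, against 707 to 2103 CPM in the other 5 libraries. Most of that sum was Ngp, Lcn2 and Ltf, at 5542, 3963 and 2550 CPM. The early granule genes Mpo, Elane and Ctsg had at most 14, 21 and 2 counts in any library. Prtn3, also an early granule gene, had 81 to 705 counts, with the most in hyperoxia replicate 2.

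A dividing cell makes replication proteins under the E2F transcription factors, which the retinoblastoma protein RB holds inactive until cyclin D and cyclin E kinases release them at the G1/S transition. Mitotic genes come on later through a CHR element (cell cycle genes homology region) and CCAAT boxes, read by the DREAM repressor complex in resting cells and by B-MYB and FOXM1 complexes in dividing ones. Neutrophils divide as precursors in the bone marrow and leave the cycle before they mature, so the RNA of these genes is normally low in blood and tissue neutrophils.

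Per kilobase of exon, these RNAs were scarce apart from 3 genes. RPKM (CPM per kilobase of the GENCODE exon union) averaged 14.2 ± 1.48 in normoxia and 15.5 ± 3.54 in hyperoxia for Hmgb2, a chromatin protein gene that is also active outside the cycle. Slbp, which encodes the histone mRNA stem-loop binding protein, averaged 16.3 ± 2.21 and 13.2 ± 3.49 RPKM in the same order. Pcna, the sliding clamp of DNA polymerase, averaged 7.23 ± 1.69 and 5.72 ± 3.16 RPKM (SD, n = 3 each). The next in level was Ccnb2 at 1.52 ± 0.63 and 2.84 ± 0.91 RPKM, and the other 35 members lay below Ccnb2 when averaged over all libraries. By comparison, the CDK inhibitor genes Cdkn1a (p21) and Cdkn2d (p19INK4D) averaged 474 ± 52.0 and 268 ± 37.0 RPKM in normoxia. The ranges of mean ± SD of Hmgb2 and Slbp overlapped in both groups, and Pcna lay below both genes. Those of Cdt1, Cdc20, Aurka and Mcm4, the next in order, each overlapped that of Ccnb2 in both groups.

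No member of either phase passed the test of hyperoxia against normoxia. edgeR at an adjusted p of 0.05 called 0 of the 18 replication genes tested and 0 of the 20 mitotic genes, and over all genes it called 0% as higher and 0% as lower. At an unadjusted p under 0.05, 4 replication genes (Mcm5, Rrm2, E2f1, Mcm3) and 2 mitotic genes (Aurka, Ccnb2) were higher and none was lower, against 9.1% of all genes higher and 3.91% lower. DESeq2 called 1 member, Mcm5, as higher, against 3.65% of genes higher and 0.411% lower. The log2 difference (hyperoxia minus normoxia, from edgeR, given below ± SE) was above 0 for 14 of 18 replication genes and 19 of 20 mitotic genes, against 53.7% of all genes tested. The median log2 difference was 0.52 for the replication genes and 0.83 for the mitotic genes, beside 0.04 for all genes. Groups did not overlap for 4 members, all higher in hyperoxia (Mcm5 and Rrm2 for replication, Aurka and Cenpe for mitosis), whereas 9.56% of all genes lay wholly higher and 10.3% wholly lower. These counts describe the members beside the background, and no test compared them. A change in the number of cells of a type and a change in RNA per cell cannot be told apart in bulk samples.

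**Figure D1:**
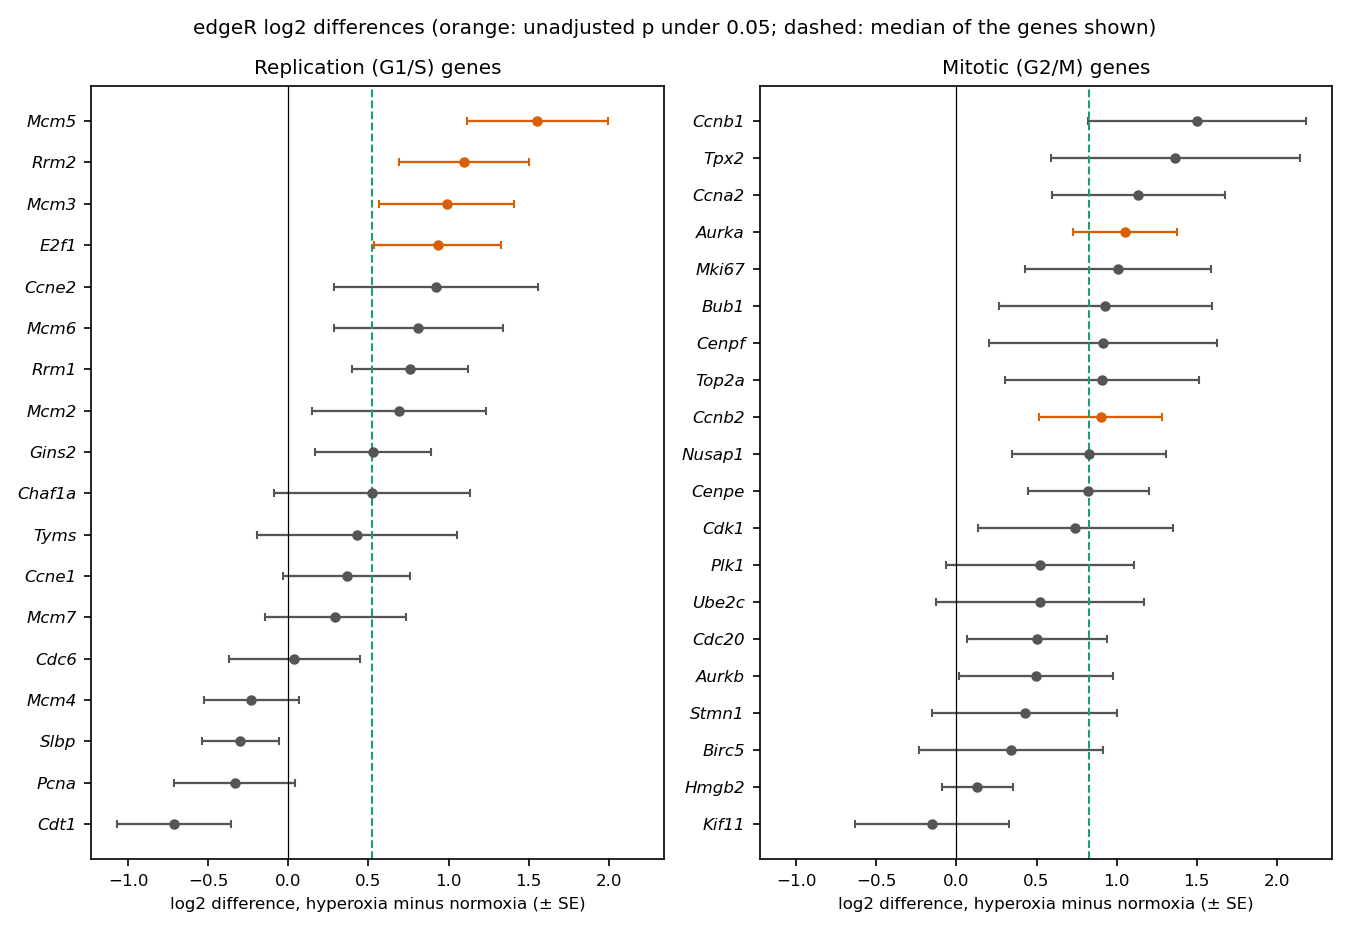
Log2 difference, hyperoxia minus normoxia, from edgeR for each tested member (points; bars are ± SE), replication genes on the left and mitotic genes on the right; orange marks an unadjusted p under 0.05 and the dashed line the median. All mitotic genes but Kif11 lie above 0, whereas Cdt1, Pcna, Slbp and Mcm4 lie below 0 on the replication side.

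Promoter sequences, which played no part in choosing the genes, differed in their elements between the phases. RefSeq promoter sequences (build GRCm38.p6, 250 bases before to 50 after the gene start) were matched for 32 of the 39 members, as 33 promoters. They were searched on both strands for 3 elements. The E2F element was taken as any of the words TTCCCGC or else TTCGCGC or else TTGGCGC or else TTGCCGC. The CHR element was taken as TTTGAA or else the palindrome TTCGAA, and the CCAAT box as CCAAT. An E2F word stood in 10 of 17 replication promoters (58.8%) and 3 of 16 mitotic promoters (18.8%), against 9.57% of all 32851 promoters and 16% of those of genes tested. A CHR word stood in 2 of 17 replication promoters (11.8%) and 12 of 16 mitotic promoters (75%), against 19.2% of all promoters and 14.2% of those of genes tested. CCAAT was found in 64.7% of replication promoters and 87.5% of mitotic promoters, against 37.4% of all promoters, and CHR and CCAAT occurred together in 75% of mitotic promoters against 7.52% of all promoters. An E2F word shared bases with a CCAAT box in 2 members, Ccnb1 and Mcm7, and no CHR word overlapped another element. A match is a run of letters and not evidence of binding. Mcm4, Gins2, Ccne2, Stmn1, Ccna2, Aurkb and Tpx2 are the members not matched.

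**Figure D2:**
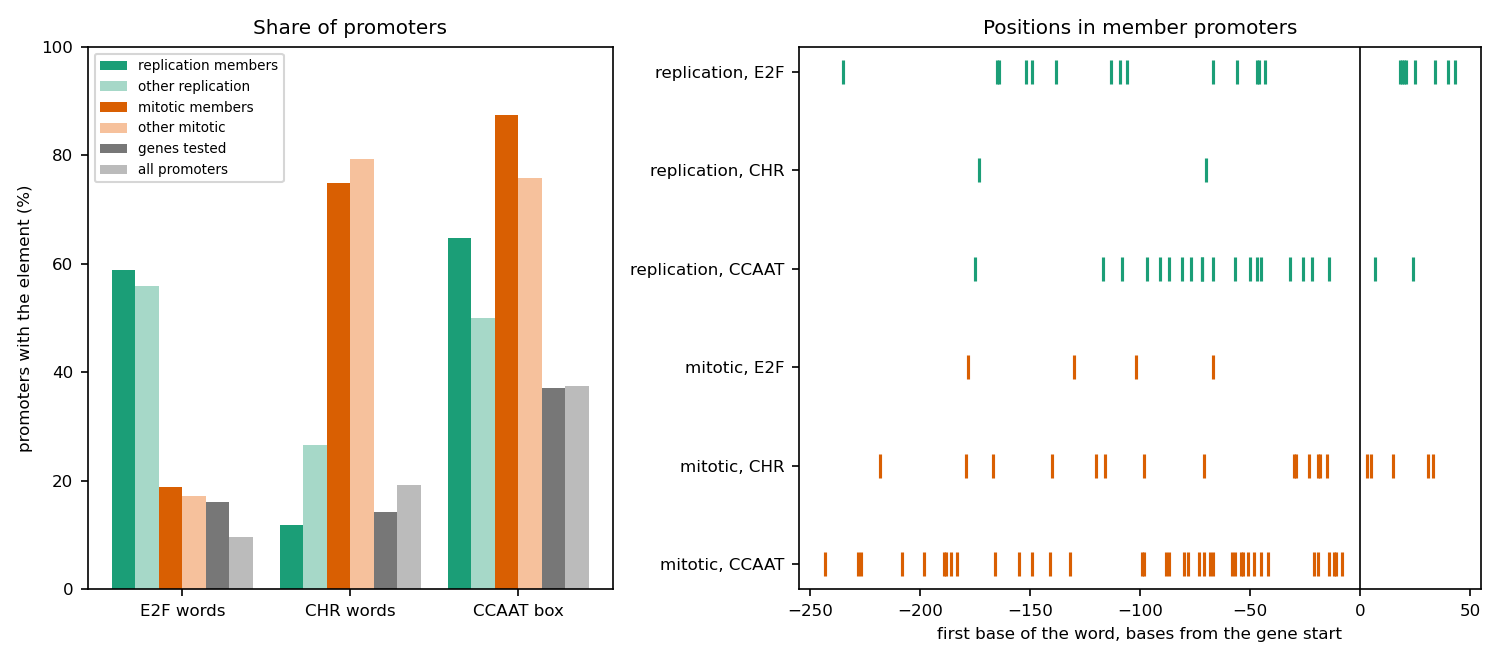
Left, share of promoters (%) that hold each element, for the members, for other replication and mitotic genes, for genes tested and for all promoters; right, position of each element in member promoters, in bases from the gene start. E2F words are found mostly on the replication side (58.8% against 18.8% of promoters), and CHR words mostly on the mitotic side (75% against 11.8%).

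The replication gene with the lowest p belongs to the MCM helicase, the ring of 6 related proteins that is loaded on origins in G1 and unwinds DNA in S phase. The 250 bases before the start of 3 replication genes are shown because they carry E2F words and include both replication genes whose groups did not overlap. Capitals mark E2F words and CCAAT boxes on either strand. The windows are chr8:75109259-75109508 (plus strand) for Mcm5, chr12:24708004-24708253 (plus strand) for Rrm2 and chr1:128359706-128359955 (minus strand) for Mcm6.
Mcm5: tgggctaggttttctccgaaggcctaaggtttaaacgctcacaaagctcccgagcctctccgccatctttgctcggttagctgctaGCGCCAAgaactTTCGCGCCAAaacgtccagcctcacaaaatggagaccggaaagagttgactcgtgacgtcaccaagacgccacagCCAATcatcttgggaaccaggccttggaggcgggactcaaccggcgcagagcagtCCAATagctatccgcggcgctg
Rrm2: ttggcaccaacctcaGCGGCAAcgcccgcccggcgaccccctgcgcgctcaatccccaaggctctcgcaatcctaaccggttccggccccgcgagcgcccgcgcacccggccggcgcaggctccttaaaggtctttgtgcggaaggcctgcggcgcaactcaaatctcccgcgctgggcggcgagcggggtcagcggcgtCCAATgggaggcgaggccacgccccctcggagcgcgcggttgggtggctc
Mcm6: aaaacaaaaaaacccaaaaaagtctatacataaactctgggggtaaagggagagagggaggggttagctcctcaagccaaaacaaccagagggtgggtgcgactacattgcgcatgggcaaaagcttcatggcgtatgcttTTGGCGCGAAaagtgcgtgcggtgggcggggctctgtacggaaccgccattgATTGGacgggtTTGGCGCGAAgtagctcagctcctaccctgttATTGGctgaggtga
Counted from the gene start, the E2F words begin at -164, -152 and -149 in Mcm5 and at -235 in Rrm2. In Mcm6 they form overlapping pairs that begin at -109 and -106 and at -46 and -43, and a further one begins at 25 after the start, outside the printed bases.

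Mcm5 (ENSMUSG00000005410, GRCm38 chromosome 8, 75109569 to 75128439) had levels of 1.83, 1.55 and 2.03 CPM in normoxia and 4.2, 2.79 and 8.92 CPM in hyperoxia. All 3 hyperoxia libraries lay above all 3 normoxia libraries, with replicate 3 far above the other two. The log2 difference was 1.56 ± 0.44, and the adjusted p was 0.208 in edgeR and 0.0199 in DESeq2. Mcm5 thus rose by DESeq2 and not by edgeR, and the DESeq2 call was lost without normoxia replicate 1 (adjusted p 0.15), 2 (0.235) or 3 (0.0787) or without hyperoxia replicate 3 (0.13). It was kept without hyperoxia replicate 1 (DESeq2 adjusted p of 0.0255) or 2 (0.000461).

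The other helicase subunits spread on both sides of 0. Mcm3 stood at 2.97, 2.08 and 3.93 CPM in normoxia and 6.5, 2.9 and 8.44 CPM in hyperoxia, a log2 difference of 0.99 ± 0.42 with an edgeR adjusted p of 0.376. Mcm6 gave 1.61, 2.39 and 3.16 CPM in normoxia against 3.67, 1.61 and 7.32 CPM in hyperoxia (log2 difference 0.81 ± 0.53). Mcm2 gave 1.57, 1.35 and 2.16 CPM in normoxia against 3.11, 0.85 and 4.25 CPM in hyperoxia (log2 difference 0.69 ± 0.54). In each of these 3 subunits hyperoxia replicates 1 and 3 were the highest libraries, while replicate 2 fell among or below the normoxia libraries. Mcm7 showed the same arrangement, with 2.78, 2.64 and 2.88 CPM in normoxia and 3.9, 1.38 and 4.92 CPM in hyperoxia, a log2 difference of 0.29 ± 0.44. Mcm4 went the other way, with 8.92, 7.87 and 4.85 CPM in normoxia against 5.36, 5.37 and 7.7 CPM in hyperoxia and a log2 difference of -0.23 ± 0.30. The 6 subunits of this complex thus had log2 differences from -0.23 to 1.56, and no test compared the subunits with each other.

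Licensing factors load that helicase. Cdt1, the loading factor that geminin blocks, stood at 6.79, 10.5 and 7.19 CPM in normoxia and 5.01, 2.88 and 7.07 CPM in hyperoxia. Its log2 difference of -0.71 ± 0.35 was the lowest of all members, with an edgeR adjusted p of 0.434, and hyperoxia replicate 3 reached into the normoxia range. Cdc6, which works beside Cdt1 at origins, was nearly level, with 0.8, 0.8 and 0.77 CPM in normoxia against 0.86, 0.56 and 1.01 CPM in hyperoxia (log2 difference 0.04 ± 0.41). Gins2, a subunit of the GINS complex that activates the loaded helicase, gave 1.43, 1.64 and 1.18 CPM in normoxia against 1.95, 1.44 and 2.76 CPM in hyperoxia (log2 difference 0.53 ± 0.36), with its highest library in hyperoxia replicate 3. However, 2758 exon bases of Gins2 overlap Gse1 on the opposite strand and the strand setting of the counting is not given in the sources used here.

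Nucleotide supply is made by ribonucleotide reductase and thymidylate synthase. Rrm2 (ENSMUSG00000020649, chromosome 12, 24708241 to 24714146), the small reductase subunit that accumulates in S phase, stood at 1.47, 1.6 and 2.77 CPM in normoxia and 3.14, 3.07 and 6.27 CPM in hyperoxia, without overlap. The log2 difference was 1.09 ± 0.41, and the adjusted p was 0.317 in edgeR and 0.153 in DESeq2. Rrm1, the large subunit, gave 1.57, 3.06 and 2.7 CPM in normoxia against 3.97, 2.97 and 5.47 CPM in hyperoxia (log2 difference 0.76 ± 0.36), where hyperoxia replicate 2 fell inside the normoxia range. Tyms, the thymidylate synthase gene, gave 1.33, 1.71 and 3.96 CPM in normoxia against 2.98, 1.0 and 5.43 CPM in hyperoxia (log2 difference 0.43 ± 0.63), with the lowest library of all in hyperoxia replicate 2.

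The replication genes with the highest levels, Pcna and Slbp, had log2 differences below 0. Pcna stood at 12.8, 18.5 and 20.7 CPM in normoxia and 8.83, 9.88 and 22.5 CPM in hyperoxia, a log2 difference of -0.34 ± 0.38, and hyperoxia replicate 3 was the highest library while replicates 1 and 2 were the lowest. Slbp stood at 83.5, 107 and 106 CPM in normoxia against 71.1, 65.5 and 105 CPM in hyperoxia, a log2 difference of -0.30 ± 0.24. Chaf1a, a subunit of the CAF-1 histone chaperone, gave 0.37, 0.53 and 0.41 CPM in normoxia against 0.61, 1.06 and 0.21 CPM in hyperoxia (log2 difference 0.52 ± 0.61), with hyperoxia replicate 2 highest and replicate 3 lowest. Chaf1a shares 2542 exon bases with Ubxn6 on the other strand, which held 7670 counts over the 6 libraries against 158 for Chaf1a. Ung, which removes uracil from DNA, was not tested, with counts of 3, 6 and 5 in normoxia and 4, 5 and 23 in hyperoxia. Pcna, Tyms and Stmn1 have related copies in GENCODE M21, with which reads may have been shared.

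The members that regulate the G1/S switch, E2f1, Ccne1 and Ccne2, were low. E2f1, the activator that drives replication genes, stood at 0.98, 1.49 and 0.9 CPM in normoxia and 1.34, 2.33 and 2.76 CPM in hyperoxia, a log2 difference of 0.93 ± 0.40 with an edgeR adjusted p of 0.375. Hyperoxia replicates 2 and 3 were above all normoxia libraries and replicate 1 was not. Cyclin E partners CDK2 at the transition. Its gene Ccne1 gave 1.24, 0.82 and 1.23 CPM in normoxia against 1.21, 1.05 and 1.98 CPM in hyperoxia (log2 difference 0.36 ± 0.40). Ccne2 gave 0.26, 0.33 and 0.23 CPM in normoxia against 0.61, 0.17 and 0.8 CPM in hyperoxia (log2 difference 0.92 ± 0.64). The highest library of both was hyperoxia replicate 3, and the lowest was in normoxia for Ccne1 and in hyperoxia for Ccne2. Ccne2 overlaps Ints8 on the other strand by 474 exon bases.

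For mitosis, the 250 bases before the start of 4 genes are shown to set the paired CCAAT and CHR layout beside the values. Capitals mark CHR words, CCAAT boxes and E2F words on either strand. The windows, all on the minus strand, are chr10:69352913-69353162 for Cdk1, chr4:118437344-118437593 for Cdc20, chr9:70421555-70421804 for Ccnb2 and chr2:172370571-172370820 for Aurka.
Cdk1: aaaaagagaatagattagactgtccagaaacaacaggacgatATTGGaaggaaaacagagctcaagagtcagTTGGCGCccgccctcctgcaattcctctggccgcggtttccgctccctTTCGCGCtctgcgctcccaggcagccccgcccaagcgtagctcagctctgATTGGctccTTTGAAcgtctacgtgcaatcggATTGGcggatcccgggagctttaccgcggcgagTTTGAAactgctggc
Cdc20: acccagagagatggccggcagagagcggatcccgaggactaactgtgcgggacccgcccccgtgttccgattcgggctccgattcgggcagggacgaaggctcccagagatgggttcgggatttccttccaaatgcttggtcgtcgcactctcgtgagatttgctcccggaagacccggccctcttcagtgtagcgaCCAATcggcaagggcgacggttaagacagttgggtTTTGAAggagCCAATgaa
Ccnb2: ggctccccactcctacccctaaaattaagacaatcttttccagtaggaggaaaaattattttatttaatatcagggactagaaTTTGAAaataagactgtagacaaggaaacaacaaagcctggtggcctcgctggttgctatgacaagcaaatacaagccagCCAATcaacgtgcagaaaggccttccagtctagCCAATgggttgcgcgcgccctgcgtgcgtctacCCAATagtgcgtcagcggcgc
Aurka: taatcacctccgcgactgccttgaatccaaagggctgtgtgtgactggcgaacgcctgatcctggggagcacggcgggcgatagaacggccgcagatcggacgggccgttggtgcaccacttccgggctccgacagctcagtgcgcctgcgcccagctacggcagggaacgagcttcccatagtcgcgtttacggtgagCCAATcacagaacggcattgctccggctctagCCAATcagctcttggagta
CHR words begin at -71 and -15 in Cdk1, at -18 in Cdc20 and at -167 in Ccnb2. A second CHR word of Ccnb2 begins at 5 after the start, outside the printed bases. Aurka holds CCAAT boxes at -51 and -19 and its CHR word after the start, outside the printed bases. Cdk1 is the only one of the 4 with E2F words in the printed window.

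Cyclins and their kinase drive entry into mitosis. Ccnb1 (cyclin B1) stood at 0.26, 0.33 and 0.54 CPM in normoxia and 1.19, 0.28 and 1.75 CPM in hyperoxia, the largest log2 difference of the mitotic genes at 1.5 ± 0.68, with an edgeR adjusted p of 0.397. It rests on 11 to 83 counts a library, and hyperoxia replicate 2 lay in the normoxia range. Ccnb2 (cyclin B2) stood at 1.92, 1.64 and 3.44 CPM in normoxia against 4.07, 3.12 and 5.87 CPM in hyperoxia, a log2 difference of 0.90 ± 0.38 with an edgeR adjusted p of 0.375. The ranges met only where normoxia replicate 3 exceeded hyperoxia replicate 2. Ccna2 (cyclin A2), active from S phase to early mitosis, gave 0.63, 0.95 and 1.62 CPM in normoxia against 3.14, 0.96 and 2.97 CPM in hyperoxia (log2 difference 1.14 ± 0.54). Cdk1, the mitotic kinase itself, gave 1.31, 1.57 and 4.5 CPM in normoxia against 3.52, 1.77 and 7.05 CPM in hyperoxia (log2 difference 0.74 ± 0.61). In both, normoxia replicate 3 was well above the other normoxia libraries and hyperoxia replicate 2 well below the other hyperoxia libraries.

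Mitotic kinases differed in how steady the hyperoxia libraries were. Aurka (ENSMUSG00000027496, chromosome 2, 172356190 to 172370535), the centrosome and spindle kinase Aurora A, stood at 4.24, 1.93 and 4.01 CPM in normoxia and 7.39, 6.98 and 6.69 CPM in hyperoxia. The 3 hyperoxia libraries were close together and all above normoxia. The log2 difference was 1.05 ± 0.33, and the adjusted p was 0.246 in edgeR and 0.07 in DESeq2. Aurkb (Aurora B, of the chromosomal passenger complex) gave 1.26, 1.33 and 1.77 CPM in normoxia against 2.45, 0.81 and 2.9 CPM in hyperoxia (log2 difference 0.49 ± 0.48). Plk1 (Polo-like kinase 1) gave 1.15, 0.86 and 2.21 CPM in normoxia against 2.93, 0.66 and 2.48 CPM in hyperoxia (log2 difference 0.52 ± 0.59). Bub1, a checkpoint kinase at kinetochores, gave 0.26, 0.13 and 0.57 CPM in normoxia against 0.99, 0.36 and 0.48 CPM in hyperoxia (log2 difference 0.93 ± 0.67). In Aurkb and Plk1 hyperoxia replicate 2 was the lowest of all 6 libraries, unlike in Aurka.

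Spindle and kinetochore genes were mostly under 2 CPM. Cenpe (ENSMUSG00000045328, chromosome 3, 135212537 to 135273611), a kinesin motor at kinetochores, stood at 0.56, 0.71 and 0.87 CPM in normoxia and 1.44, 1.08 and 1.28 CPM in hyperoxia, without overlap, with a log2 difference of 0.82 ± 0.38 and an edgeR adjusted p of 0.403. Tpx2, which activates Aurora A on the spindle, gave 0.3, 0.22 and 1.28 CPM in normoxia against 1.47, 0.56 and 2.63 CPM in hyperoxia (log2 difference 1.37 ± 0.78). Cenpf, a kinetochore protein, gave 0.23, 0.49 and 0.59 CPM in normoxia against 1.11, 0.19 and 1.2 CPM in hyperoxia (log2 difference 0.92 ± 0.71). Tpx2 in normoxia replicate 3 lay close to hyperoxia replicate 1 and above hyperoxia replicate 2. Nusap1, a microtubule-binding protein, gave 0.73, 0.62 and 1.03 CPM in normoxia against 1.32, 0.74 and 2.17 CPM in hyperoxia (log2 difference 0.83 ± 0.48). Stmn1, a microtubule destabiliser, gave 0.54, 1.04 and 1.1 CPM in normoxia against 0.68, 0.67 and 2.25 CPM in hyperoxia (log2 difference 0.43 ± 0.58). Kif11, the kinesin that separates spindle poles, was the only mitotic gene below 0, with 0.33, 0.38 and 0.28 CPM in normoxia against 0.25, 0.3 and 0.34 CPM in hyperoxia (log2 difference -0.15 ± 0.48), all 6 libraries being low and close together.

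The remaining mitotic genes act in chromosome structure and exit. Mki67, the Ki-67 proliferation antigen, stood at 1.57, 1.77 and 1.54 CPM in normoxia and 1.54, 1.55 and 6.73 CPM in hyperoxia, so that 5 libraries lay together and hyperoxia replicate 3 alone was high. Its log2 difference was 1.01 ± 0.58, and without that library it was -0.07. Top2a, the topoisomerase that untangles chromosomes, gave 0.7, 0.71 and 1.36 CPM in normoxia against 2.45, 0.5 and 2.27 CPM in hyperoxia (log2 difference 0.91 ± 0.61). Birc5 (survivin, of the passenger complex) gave 1.69, 1.73 and 4.34 CPM in normoxia against 3.54, 1.19 and 5.11 CPM in hyperoxia (log2 difference 0.34 ± 0.57). In both, normoxia replicate 3 and hyperoxia replicates 1 and 3 were the highest libraries. Cdc20, the activator of the anaphase-promoting complex, gave 2.62, 3.28 and 3.67 CPM in normoxia against 5.26, 1.88 and 6.48 CPM in hyperoxia (log2 difference 0.51 ± 0.44). Its ubiquitin-conjugating enzyme Ube2c gave 1.87, 1.53 and 4.34 CPM in normoxia against 3.77, 0.99 and 6.35 CPM in hyperoxia (log2 difference 0.52 ± 0.65). Top2a, Birc5, Cdc20 and Ube2c had their lowest library in hyperoxia replicate 2. Hmgb2, at 47.4, 38.6 and 41.6 CPM in normoxia against 43.6, 58.3 and 37.6 CPM in hyperoxia (log2 difference 0.13 ± 0.22), was the exception, since replicate 2 was its highest library.

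**Figure D3:**
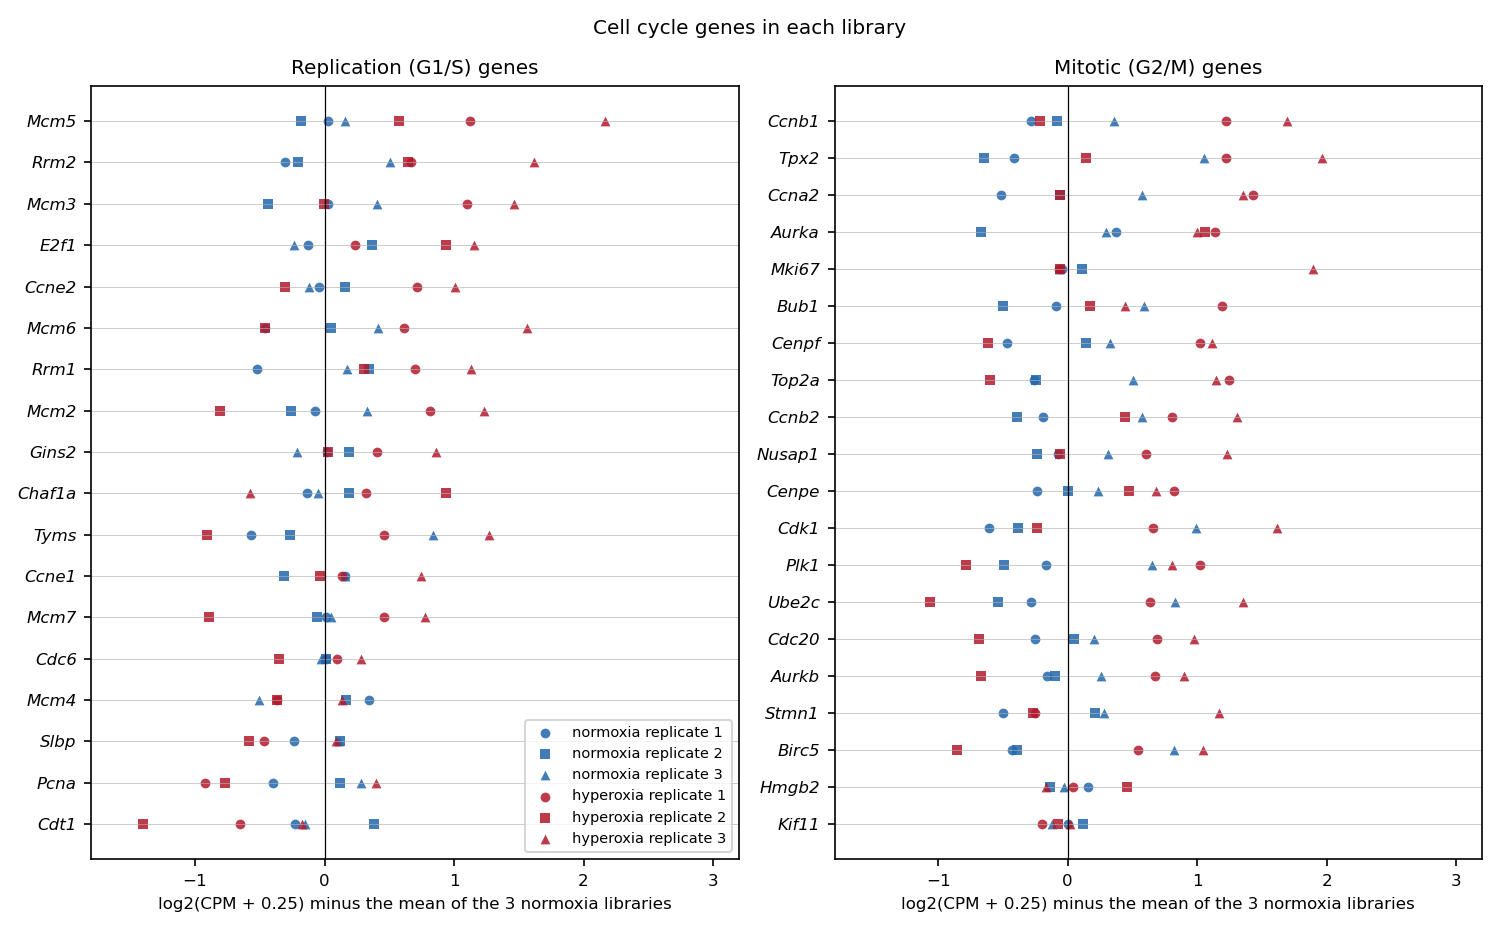
Level of each tested member in each library as log2(CPM + 0.25) minus the mean of the 3 normoxia libraries, replication genes on the left and mitotic genes on the right (blue, normoxia; red, hyperoxia; symbol shape, replicate). Hyperoxia replicate 3 (red triangles) is usually highest and hyperoxia replicate 2 (red squares) usually within or below normoxia.

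The spread inside the hyperoxia group followed library, and was shared by members of both phases. Hyperoxia replicate 3 was the highest of the 6 libraries in 14 of 18 replication genes and 12 of 20 mitotic genes, and replicate 1 was the highest in 6 other mitotic genes. Hyperoxia replicate 2 was the lowest of its group in 14 of 18 replication genes and 16 of 20 mitotic genes, and the lowest of all 6 libraries in 8 and 7 of them. Among normoxia libraries, replicate 3 was highest in 16 of 20 mitotic genes but in 8 of 18 replication genes. On the scale of log2(CPM + 0.25) relative to the normoxia mean, the median mitotic gene stood at -0.24, -0.19, 0.34, 0.75, -0.14 and 1.13, in the order normoxia replicates 1 to 3 and hyperoxia replicates 1 to 3. The median replication gene stood at -0.10, 0.08, 0.13, 0.43, -0.33 and 0.93 in the same order.

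Single libraries moved these values. Without hyperoxia replicate 3, the median log2 difference was 0.18 for replication genes and 0.36 for mitotic genes. In that fit 11 of 18 and 15 of 20 lay above 0, against 51.9% of all genes. Without hyperoxia replicate 2, the medians were 0.81 and 1.09, with 8 of 18 replication genes and 12 of 20 mitotic genes at an unadjusted p under 0.05, against 10.6% of all genes higher in that fit. In that fit edgeR again called 0 members at an adjusted p of 0.05, and DESeq2 called Mcm3, Mcm5, Ccnb1 and Ccna2. Without normoxia replicate 3, the mitotic median was 1.14 with 5 of 20 genes at an unadjusted p under 0.05, against 9.15% of all genes higher in that fit, and DESeq2 called Tpx2. The share of all genes that DESeq2 called with 1 library left out is not given here, so these DESeq2 calls have no background beside them. limma-voom on all 6 libraries gave medians of 0.33 and 0.60. Both edgeR medians stayed above that of all genes in each of the 6 fits. The number at an unadjusted p under 0.05 with 1 library left out ran from 1 to 8 of 18 replication genes and from 1 to 12 of 20 mitotic genes, while the share of all genes higher at that threshold ran from 5.93% to 13.1% over the same fits.

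**Figure D4:**
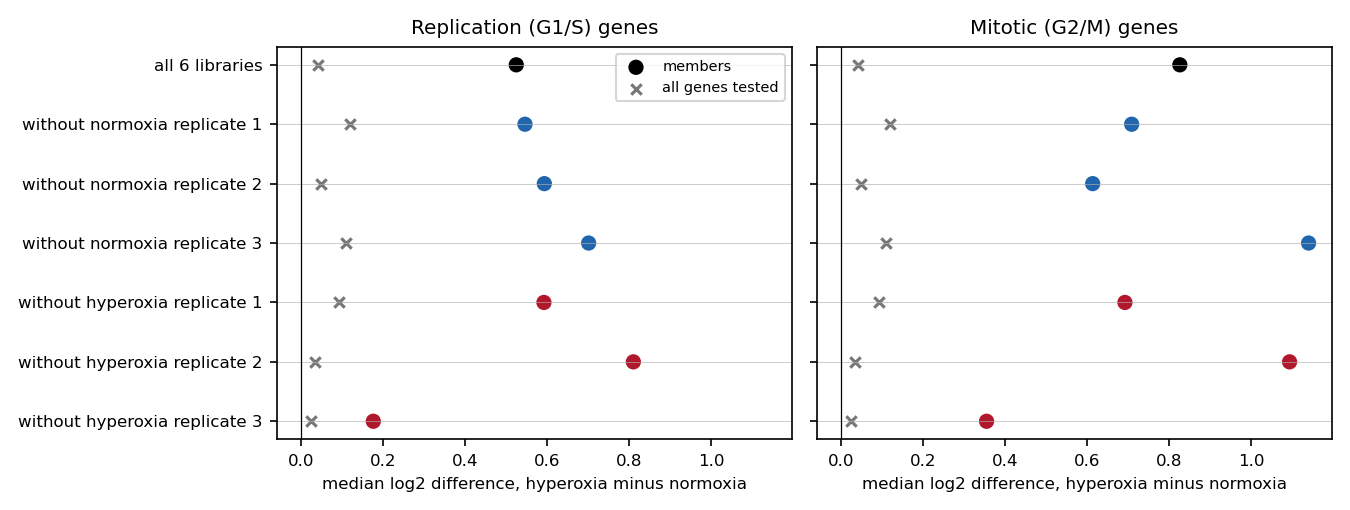
Median log2 difference, hyperoxia minus normoxia, of the replication genes (left) and mitotic genes (right) with all 6 libraries and with each library left out; crosses give the median of all genes tested in the same fit. The smallest values, 0.18 and 0.36, come from leaving out hyperoxia replicate 3.

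Markers of other cell types also differed between libraries. Of the cell type lists, only the epithelial one was, like the cycle genes, below the normoxia mean in hyperoxia replicate 2. The mitotic median in that library (-0.14) still lay above those of normoxia replicates 1 and 2 (-0.24 and -0.19). The median of the epithelial markers (8 of 8 tested) was, like that of the mitotic genes, higher in normoxia replicate 3 and hyperoxia replicates 1 and 3 than in the other 3 libraries. Their medians relative to normoxia were -0.58, -0.03, 0.54, 0.93, -3.13 and 0.78 in the order above, and their summed level was 84.6 to 185 CPM in normoxia and 14.1 to 243 CPM in hyperoxia. The keratin gene Krt18 stood at 12.9, 17.6 and 30.9 CPM in normoxia and 38.4, 1.63 and 41.9 CPM in hyperoxia, with the lowest of its hyperoxia values in replicate 2. Erythroid markers (5 of 6 tested) were highest in normoxia replicate 3 and hyperoxia replicate 3, with sums of 58.1 to 729 CPM in normoxia and 116 to 812 CPM in hyperoxia. T and NK cell markers (10 of 11 tested) summed to 3.65 to 12.1 CPM in normoxia and 6.7 to 27.9 CPM in hyperoxia, with the highest value in replicate 3. Macrophage markers (14 of 14 tested) summed to 1541 to 1739 CPM in normoxia and 2259 to 3473 CPM in hyperoxia, and unlike the cycle genes they were above normoxia in hyperoxia replicate 2 as well.

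Of the remaining marker lists, dendritic cell and MHC class II genes summed to 473 to 513 and 698 to 2091 CPM, B cell genes to 30.4 to 31.6 and 29.3 to 53.8 CPM, and endothelial genes to 8.87 to 14.2 and 27.9 to 66.7 CPM in normoxia and hyperoxia. Stromal genes summed to 18.7 to 58.0 and 35.9 to 248 CPM and smooth muscle genes to 15.6 to 22.1 and 24.4 to 50.3 CPM. The highest sums of dendritic cell and MHC class II, B cell and stromal genes were in hyperoxia replicate 3. Those of endothelial and smooth muscle genes were in hyperoxia replicate 2. In hyperoxia replicate 2, where the median cycle gene was below the normoxia mean, the list medians relative to normoxia were 2.77 for endothelial, 2.57 for stromal and 1.42 for B cell genes, and those of smooth muscle and dendritic cell genes were above 0 too. No marker of these lists was at 0 in all libraries, while Ctsg and Pax5 had at most 3 counts in each. Immediate early genes that respond to tissue digestion had a median log2 difference of -0.59 over 8 genes. Their list median relative to normoxia was -0.16, -1.03 and -0.76 in hyperoxia replicates 1 to 3, so this list too was below the normoxia mean in replicate 2. The granulocyte precursor list was highest in hyperoxia replicate 2, with most of its sum from Ngp, Lcn2 and Ltf. In that library most cycle genes had the lowest level of the hyperoxia group. The mature neutrophil markers summed to 34518 to 52444 CPM in normoxia and 32670.1 to 91291 CPM in hyperoxia. Their lowest sum was in hyperoxia replicate 3 and their highest in hyperoxia replicate 2. The part that RNA of other cells plays in the values of the cycle genes was not tested.

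**Figure D5:**
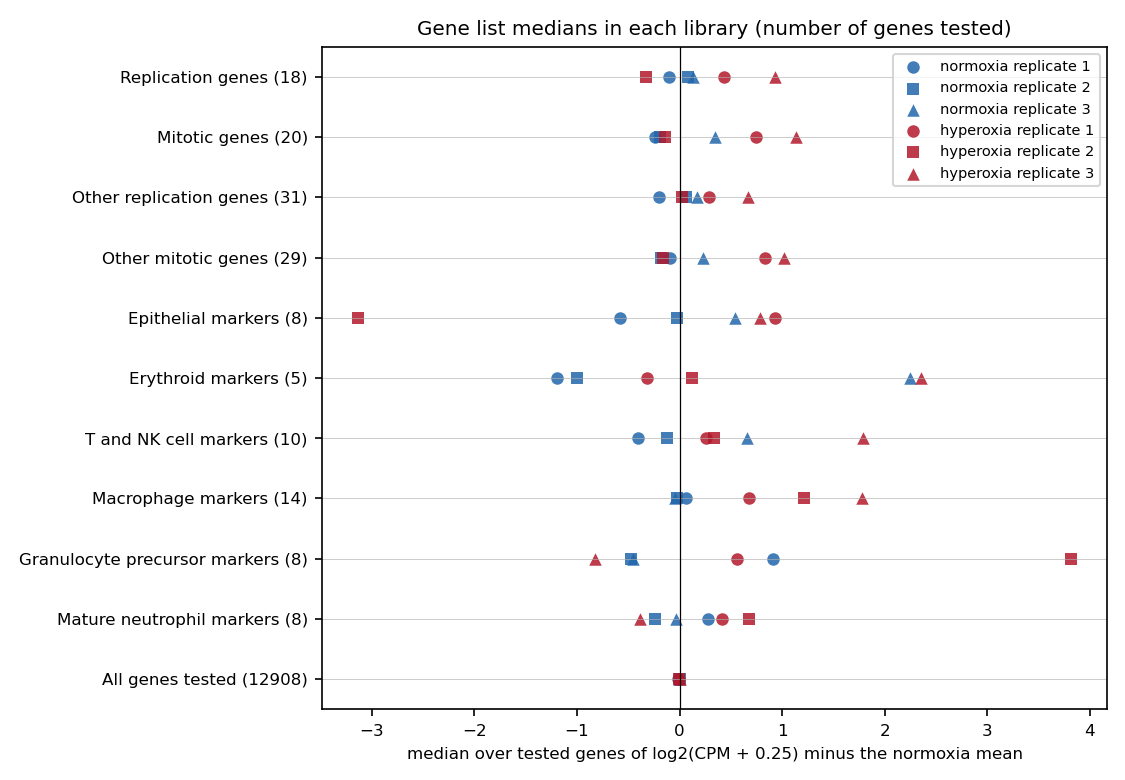
Median over the tested genes of each list of log2(CPM + 0.25) minus the normoxia mean, by library (blue, normoxia; red, hyperoxia; symbol shape, replicate). In hyperoxia replicate 2 the medians of epithelial markers (-3.13), replication genes (-0.33) and mitotic genes (-0.14) are below the normoxia mean. That of the mitotic genes still lies above normoxia replicates 1 and 2 (-0.24 and -0.19). Precursor markers are highest in hyperoxia replicate 2 (3.82).

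Other genes of the pathway were listed by function. Of 34 other replication genes 31 were tested, and 28 lay above 0, against 53.7% of all genes tested, with a median log2 difference of 0.53. edgeR called 0 of them, as over all genes, and DESeq2 called 0, against 3.65% of all genes called higher. In edgeR 4 were higher at an unadjusted p under 0.05, against 9.1% of all genes. The lowest p belonged to Rpa1, the single-strand DNA binding protein, at 1.54, 2.33 and 1.8 CPM in normoxia and 3.09, 3.07 and 4.78 CPM in hyperoxia (log2 difference 0.95 ± 0.32, edgeR adjusted p 0.284). Pola1, the polymerase alpha subunit, gave 0.070, 0.044 and 0.21 CPM in normoxia against 0.46, 0.22 and 0.57 CPM in hyperoxia (log2 difference 1.94 ± 0.73), on 2 to 27 counts a library. Promoters of the other replication genes held an E2F word in 55.9% and a CHR word in 26.5% of cases.

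Of 32 other mitotic genes 29 were tested, and 24 lay above 0, against 53.7% of all genes tested, with a median log2 difference of 0.79. edgeR called 0, as over all genes, and 5 were higher at an unadjusted p under 0.05, against 9.1% of all genes. DESeq2 called 1 of the 29, Nuf2, as higher, against 3.65% of all genes called higher. Nuf2, a subunit of the kinetochore complex that binds microtubules, stood at 0.23, 0.044 and 0.31 CPM in normoxia and 1.09, 0.92 and 1.56 CPM in hyperoxia. Its log2 difference was 2.60 ± 0.65, and the adjusted p was 0.168 in edgeR and 0.00507 in DESeq2. Tacc3, a spindle protein, gave 1.83, 2.08 and 2.54 CPM in normoxia against 4.12, 2.97 and 7.39 CPM in hyperoxia (log2 difference 1.17 ± 0.38). Anln, of the cytokinetic ring, gave 0.21, 0.089 and 0.15 CPM in normoxia against 0.38, 0.39 and 0.82 CPM in hyperoxia (log2 difference 1.80 ± 0.60). CHR words were in 79.3% and E2F words in 17.2% of promoters of these genes.

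Upstream, 13 of 16 E2F, RB and DREAM genes tested lay above 0, against 53.7% of all genes tested, with a median log2 difference of 0.36. edgeR called 0 of them, as over all genes, and DESeq2 called 0, against 3.65% of all genes called higher. In edgeR 2 were higher at an unadjusted p under 0.05, against 9.1% of all genes. The repressive E2F genes E2f6 and E2f8 gave log2 differences of 1.3 ± 0.48 and 1.60 ± 0.68, on low counts for E2f8 (1 to 24 a library), and Lin9, a subunit shared by the DREAM and B-MYB complexes, gave 1.29 ± 0.56. E2f6 stood at 0.68, 0.44 and 0.36 CPM in normoxia and 1.14, 0.77 and 1.77 CPM in hyperoxia. E2f7 and Foxm1 were not tested.

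Among 10 G1 cyclins, kinases and activators tested, 7 lay above 0, against 53.7% of all genes tested, with a median log2 difference of 0.47. edgeR called 0, as over all genes, and 2 were higher at an unadjusted p under 0.05, against 9.1% of all genes. DESeq2 called 1, Myc, as higher, against 3.65% of all genes called higher. Myc, a transcription factor that promotes entry into the cycle and growth, stood at 1.92, 1.75 and 2.52 CPM in normoxia and 4.05, 5.4 and 9.99 CPM in hyperoxia, without overlap. Its log2 difference was 1.65 ± 0.38, and the adjusted p was 0.149 in edgeR and 0.00247 in DESeq2. The cyclin D genes went apart. Ccnd1 gave 1.45, 1.13 and 1.7 CPM in normoxia against 1.92, 2.25 and 4.12 CPM in hyperoxia (log2 difference 0.96 ± 0.39). Ccnd2 gave 119, 114 and 122 CPM in normoxia against 89.2, 62.3 and 99.8 CPM in hyperoxia (log2 difference -0.50 ± 0.22), its groups not overlapping in the other direction. Ccnd3, the most abundant of the 3 per kilobase, gave 331, 175 and 189 CPM in normoxia against 311, 526 and 193 CPM in hyperoxia (log2 difference 0.57 ± 0.40), with hyperoxia replicate 2 highest. Their kinases Cdk4 and Cdk6 had log2 differences of 0.54 ± 0.32 and 0.39 ± 0.29, and Cdk2, the partner of cyclin E, of 0.79 ± 0.38 (8.57, 9.54 and 10.2 CPM in normoxia against 10.7, 27.8 and 10.3 CPM in hyperoxia, highest in hyperoxia replicate 2). Cdk7, Ccnh and Cdc25a had log2 differences of -0.20 ± 0.25, 0.12 ± 0.26 and -0.02 ± 0.51.

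Of 6 inhibitors of these kinases tested, 4 lay above 0, against 53.7% of all genes tested, with a median log2 difference of 0.11. edgeR called 0, as over all genes, and DESeq2 called 0, against 3.65% of all genes called higher. In edgeR 1 was higher at an unadjusted p under 0.05, against 9.1% of all genes. Per kilobase, Cdkn1a and Cdkn2d lay above every one of the 39 cycle genes. Cdkn1a (p21), which inhibits CDK2 and binds PCNA, stood at 1472, 1809.5 and 1771 CPM in normoxia and 1956, 579 and 1887 CPM in hyperoxia (log2 difference -0.19 ± 0.42), low in hyperoxia replicate 2 alone. Cdkn2d, an inhibitor of CDK4 and CDK6, gave 489, 383 and 393 CPM in normoxia against 412, 553 and 333 CPM in hyperoxia (log2 difference 0.04 ± 0.25). Cdkn1b (p27) gave 41.1, 33.8 and 41.4 CPM in normoxia against 41.2, 25.9 and 27.6 CPM in hyperoxia (log2 difference -0.30 ± 0.23). Cdkn2c (p18INK4C), also an inhibitor of CDK4 and CDK6, was low but did not overlap between groups, with 0.3, 0.51 and 0.46 CPM in normoxia against 0.83, 0.92 and 1.68 CPM in hyperoxia (log2 difference 1.43 ± 0.47, edgeR adjusted p 0.275). Cdkn1c and Cdkn2b had log2 differences of 0.39 ± 0.40 and 0.19 ± 0.86, and Cdkn2a was not tested, with at most 2 counts in a library.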

How the data were processed

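RNA-seq was measured in 6 libraries of sorted uterine neutrophils, 3 per housing group. The authors deposited raw counts per gene, 1 table per library, with no normalization. STAR 2.4.2a, DESeq2 1.16.1 and the genome build GRCm38 are named in the submitters' processing notes. How reads were counted, with which annotation and whether by strand, is not given in the sources used here, so a gene and its antisense neighbour may share reads. Besides the overlaps given above, exons of Ccna2 overlap Exosc9 on the other strand by 428 bases. Such overlaps were 247 bases for Mcm7 with Ap4m1 and 64 with Cops6. They were 172 bases for Nusap1 with Oip5 and 53 for Cdc20 with Elovl1. Of 43432 IDs, 42548 matched GENCODE M21.

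Counts were analysed in R 4.3.3 with edgeR 4.0.16: filterByExpr, TMM scaling and a robust quasi-likelihood test, two-sided, with Benjamini-Hochberg adjustment over the 12908 genes tested. CPM used the TMM-scaled library sizes, and RPKM divided CPM by the exon union. A floor of 3 counts was 0.0486 to 0.0776 CPM, for counting error only. The SE of a log2 difference was derived as its absolute value over the square root of the F statistic of that test. Its median was 0.34, at a biological coefficient of variation of 36.3%. Alternatives were DESeq2 1.42.0, limma-voom (limma 3.58.1) with and without quality weights, other scalings, filters and thresholds, and leaving out each library; some leave-one-out counts were added after seeing the data. The fits were also run on simulated counts with known changes, and the outcome is not given here.

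The cycle genes and all lists were chosen with earlier results of these data known. Named are all 39 cycle genes, the 3 genes of lowest p in each other pathway list, and every G1 cyclin, kinase and inhibitor tested. A gene that met this rule and 1 allele of the genotype are not reported here. Promoters came from RefSeq (GRCm38.p6).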

Additional observations from a re-analysis of the deposited data

How the results depend on the processing

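Low counts limit Ung, with at most 23 in a library, and Ccnb1, with 11 to 83. Over all genes, where edgeR called 0 with all 6 libraries, DESeq2 called 513, limma-voom with quality weights 62, edgeR without the low-count filter 214, with an adjusted p under 0.1 30 and with an unadjusted p under 0.05 1680; with 1 library left out edgeR called 0 to 176 (176 without hyperoxia replicate 1). Replication members called went from 0 to 1 with DESeq2 and to 4 at an unadjusted p under 0.05, and mitotic members from 0 to 2 at an unadjusted p under 0.05. With 1 library left out, members at an unadjusted p under 0.05 numbered 1 to 8 of 18 for replication and 1 to 12 of 20 for mitosis, with 5.93% to 13.1% of all genes higher in those fits. The replication median ran from 0.18 to 0.81 and the mitotic median from 0.36 to 1.14 over the edgeR leave-one-out fits, and limma-voom gave 0.33 and 0.60. Neither median changed sign in any fit for which it was computed. Signs of single members that changed were Cdc6 in limma-voom (-0.0387) and Chaf1a with quality weights (-0.0821). Over the leave-one-out fits, log2 differences that crossed 0 ranged from -0.43 to 0.0083 for Mcm4, -0.0773 to 0.69 for Mcm7, -0.23 to 1.09 for Tyms, -0.15 to 0.26 for Cdc6, -0.0936 to 0.93 for Chaf1a, -0.0728 to 1.36 for Mki67, -0.13 to 0.99 for Birc5, -0.40 to 0.73 for Stmn1, -0.13 to 1.17 for Ube2c and -0.0457 to 0.28 for Hmgb2. Of the DESeq2 fits with 1 library left out, only those of Mcm5 enter this comparison. Within it no other tested member changed sign, and of 538 recomputed member values 523 kept both sign and call. The DESeq2 calls of Mcm3, Ccnb1, Ccna2 and Tpx2 with 1 library left out are not among the 538. The cause of these changes was not tested. No paired analysis was run, since the labels give no batch, litter or pairing of animals. They give no replicate numbers either, and those used here follow the order in which the samples are listed.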
